A study of Mus musculus with 14 samples.

Results

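The kinesin motor genes are described here in the spleens and ovaries of mice that lack ZFP36L2, an RNA-binding protein that binds AU-rich elements and promotes mRNA decay. Members were all genes whose symbol in the spleen or ovary comparison table is Kif followed by a digit. There were 37 such genes among the 20139 genes of the tables, 35 in the spleen table and 37 in the ovary table, with *Kif6* and *Kif28* listed only for the ovary. The family was chosen by the levels of *Kif17*, which were lower in L2-cKO than in WT in both organs, so the genotype values of *Kif17* are a description without a test and counts over the family leave it out.

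Poly(A) RNA was sequenced from whole spleens of 4 wild-type (WT) and 4 knockout mice and from whole ovaries of 3 WT and 3 knockout mice. The knockout mice are named L2-cKO in the labels and L2-fKO in the study, and both terms stand for Zfp36l2-/-;CMV-Cre animals in which exon 2 of *Zfp36l2*, flanked by loxP sites, was removed by Cre. CMV-Cre acts in the germline and in all tissues, so the loss is constitutive and not confined to the sampled organ. The WT mice were littermates with both intact copies of *Zfp36l2*, and they carried the CMV-Cre transgene as well. WT spleens came from 2 females (spleens 1 and 3) and 2 males, L2-cKO spleens from 1 female (spleen 3) and 3 males, and all ovaries from females. One L2-cKO animal gave both spleen 3 and ovary 1. The labels give no age for single animals. The study describes pups within the first days after birth and age-matched pairs for the spleens, and the labels do not say which animals formed a pair. The labels also call the spleen samples organoids, whereas the study describes dissected spleens. *Zfp36l2* itself had a normalized count of 4404 to 7272 in WT and 282 to 396 in L2-cKO spleens, and of 4745 to 4906 in WT and 758 to 1011 in L2-cKO ovaries. Spleen libraries held 39138010 to 45167464 counted reads and ovary libraries 31052510 to 44270070. All 10 B cell, all 10 macrophage and 9 of 10 T cell markers were detected in the spleen (*Bcl11b* was not listed). In the ovary all 15 oocyte and all 15 granulosa and theca markers were detected. Detected means not at 0 in all libraries, which does not tell the organs apart. In the spleen only 1 oocyte marker (*Figla*) and 1 granulosa and theca marker (*Fshr*) were at 0. The oocyte sum was 189 to 259 in WT spleens and 260575 to 279800 in WT ovaries.

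Kinesins are motor proteins that use ATP to move along microtubules or to shorten them. One set of kinesins builds the mitotic spindle, moves chromosomes and completes cytokinesis, and is made mainly in dividing cells. Another set carries vesicles, organelles and intraflagellar transport trains, and others serve in cilia, in signalling or in microtubule turnover. The spleen of young mice is a site of blood formation with many dividing cells, and the ovary holds growing oocytes amid dividing granulosa cells. The mitotic class held 11 members (*Kif2c*, *Kif4*, *Kif11*, *Kif14*, *Kif15*, *Kif18a*, *Kif18b*, *Kif20a*, *Kif20b*, *Kif22* and *Kif23*). The transport class held 13 members (*Kif1a*, *Kif1b*, *Kif1c*, *Kif3a*, *Kif3b*, *Kif3c*, *Kif5a*, *Kif5b*, *Kif5c*, *Kif13a*, *Kif13b*, *Kif16b* and *Kif17*). Another 8 members act in cilia or signalling (*Kif6*, *Kif7*, *Kif9*, *Kif19a*, *Kif24*, *Kif26a*, *Kif26b* and *Kif27*), and 4 in microtubule dynamics or other roles (*Kif2a*, *Kif21a*, *Kif21b* and *Kif28*). *Kif1bp* matches the naming rule but encodes a kinesin-binding protein and not a motor.

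The motors were first ranked in WT by their level per length, given as RPKM, the normalized count per kilobase of exon and per 1000000 reads of the mean library. In the spleen the highest mitotic members were *Kif22*, a motor on chromosome arms, at 39.2 ± 7.16 RPKM (SD, n = 4), *Kif11*, which pushes the spindle poles apart, at 36.4 ± 8.27, and *Kif20a*, a motor of the central spindle, at 27.0 ± 5.30. The first 2 lay within 1 SD of each other. The highest transport members in the spleen were *Kif5b*, the widely expressed heavy chain of conventional kinesin, at 21.6 ± 1.21 RPKM, *Kif1c*, a vesicle motor, at 8.34 ± 0.71, and *Kif3b*, a subunit of heterotrimeric kinesin-2, at 5.25 ± 0.41. The mitotic class made up 67.9% to 75.3% of the summed RPKM of all members without *Kif17* in WT spleens.

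In the ovary the order was different. *Kif5b* stood first at 31.1 ± 4.12 RPKM (SD, n = 3), ahead of *Kif4*, a chromosome-bound motor that organizes the spindle midzone, at 25.5 ± 0.92, *Kif1c* at 24.1 ± 0.82 and *Kif3a*, the partner of *Kif3b* in kinesin-2, at 22.5 ± 1.83. *Kif22* (18.7 ± 0.48) and *Kif11* (16.6 ± 0.82) were the next mitotic members. The mitotic class made up 42.9% to 44.2% of the summed RPKM in WT ovaries and the transport class without *Kif17* 39.5% to 41.1%, against 14.3% to 19.0% for the transport class in WT spleens. Spleen and ovary values were normalized separately, so these levels are set side by side and were not tested between organs.

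**Figure D1:**
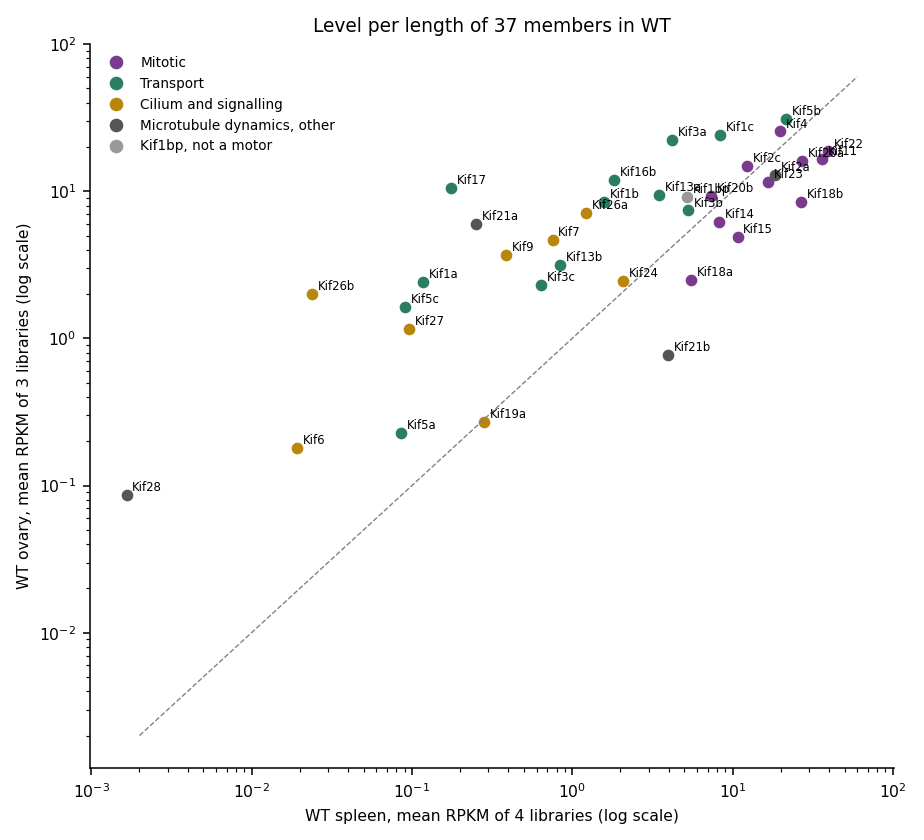
Mean RPKM of the 37 members in WT spleen (x axis, 4 libraries) against WT ovary (y axis, 3 libraries), both on log scales, coloured by class, with a dashed line of equal values. Mitotic members lie near or below the line. Kif17 lies far above it, at 0.176 RPKM in the spleen and 10.5 RPKM in the ovary. Other members do too, such as Kif26b (0.024 and 2.00) and Kif21a (0.250 and 5.96).

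*Kif17* encodes a homodimeric kinesin-2 that is known for carrying receptor subunits along dendrites and for moving into cilia. In WT it stood at place 30 of the 37 members in the spleen, at 0.176 ± 0.048 RPKM (SD, n = 4), and at place 12 in the ovary, at 10.5 ± 0.86 (SD, n = 3). In WT spleens 1 to 4 its normalized counts were 30.6, 34.8, 48.4 and 26.5, and in L2-cKO spleens 1 to 4 they were 13.8, 19.2, 13.3 and 21.7. Every L2-cKO spleen was below every WT spleen, though all these values rest on few reads. In WT ovaries 1 to 3 the normalized counts were 1944, 1652 and 1769, and in L2-cKO ovaries 1 to 3 they were 875, 463 and 773. Every L2-cKO ovary was below every WT ovary, and L2-cKO ovary 2 was the lowest. The L2-cKO mean was 48.4% of WT in the spleen (log2 fold change -1.05, standard error (SE) 0.29) and 39.3% of WT in the ovary (-1.39, SE 0.22). These values chose the family and carry no test. The effect in the ovary minus that in the spleen was -0.33 (SE 0.36), which is likewise a description. In whole organs, fewer cells of a type and less RNA per cell cannot be told apart, for *Kif17* and for all results below.

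**Figure D2:**
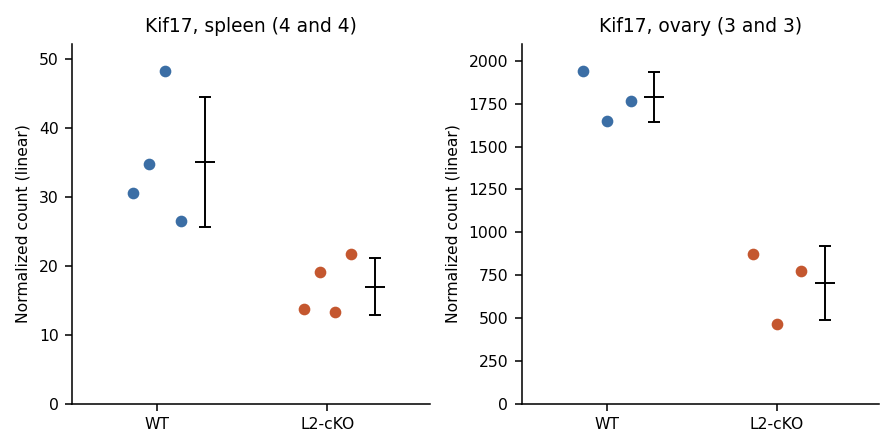
Normalized counts of Kif17 (y axes, linear, from 0) in each WT (blue) and L2-cKO (orange) library of the spleen and the ovary. Dashes with bars give mean ± SD. All L2-cKO libraries lie below all WT libraries in both organs.

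The gene lies at chr4:138250435-138301967 (+) in GRCm38, where 74 of its 4582 exon bases are shared with the neighbouring gene *Sh2d5* on the same strand. The values of *Kif17* could be touched by reads of that neighbour, so it is given beside them. *Sh2d5* had a mean normalized count of 83.5 ± 41.6 in WT and 72.2 ± 18.5 in L2-cKO spleens (SD, n = 4 each) and of 127.2 ± 9.05 in WT and 118 ± 21.3 in L2-cKO ovaries (SD, n = 3 each). It did not pass the test in either organ (edgeR adjusted p = 0.723 in the spleen, limma adjusted p = 0.780 in the ovary). The 3′UTR of *Kif17* held no UAUUUAU, the heptamer that ZFP36L2 appeared to need to bind RNA probes in the study. Its RefSeq promoter (GRCm38.p6) held TGACGTCA, known as the cyclic AMP response element, in a stretch at chr4:138262154-138262183 (+) that is shown because *Kif17* had the lowest log2 fold change of the members in the ovary. The RefSeq start lies downstream of the first base of the gene span given above, so the stretch is inside that span. The capitals mark the motif.

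Kif17 promoter: attccgtcctgTGACGTCAcggaggttgcc

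This motif was searched for after it had been seen in the *Kif17* promoter. It reads the same on both strands, was present in the promoters of 2.03% of all 27025 genes, and was found in 2 of 10 transport members with a promoter (*Kif17* and *Kif5c*) and in 1 of 10 mitotic members (*Kif18a*).

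The comparison of L2-cKO with WT spleens asks which motors changed in a blood-forming organ that lacks ZFP36L2. Apart from *Kif17*, *Kif3b* and *Kif26a* rose and no member fell at an adjusted p below 0.05. They were 2 of the 34 members tested, against a background of 6.89% of all 16911 genes that rose and 6.51% that fell, in edgeR (quasi-likelihood test, p adjusted by Benjamini-Hochberg). At an unadjusted p below 0.05 there were 9 members (26.5%), beside 29.0% of all genes. No member also passed the limit of an absolute log2 fold change of 1, where the backgrounds were 2.9% and 3.11%. With the replicate number as a block neither *Kif3b* nor *Kif26a* passed (edgeR adjusted p = 0.0602 and 0.0555), and whether the numbers mark the age-matched pairs is not stated. With DESeq2 the counts at an adjusted p below 0.05 were 5 higher and 1 lower, beside 9.96% and 9.5% of all genes, and 1 of them, *Kif26b*, passed the fold limit. All L2-cKO spleens were above all WT spleens for 5 members (*Kif1c*, *Kif3b*, *Kif7*, *Kif26a* and *Kif26b*; background 10.3%) and below them for 1 member (*Kif21a*; background 9.73%).

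*Kif3b* carries intraflagellar transport trains and vesicles together with *Kif3a* and the adaptor encoded by *Kifap3*. Its normalized counts were 1378, 1242, 1359 and 1166 in WT spleens 1 to 4 and 1777, 1891, 1834 and 1829 in L2-cKO spleens 1 to 4. The L2-cKO libraries were tightly grouped above all WT libraries. The log2 fold change was 0.49 (SE 0.10, edgeR adjusted p = 0.0129). Without WT spleen 4 the adjusted p was 0.0518, and it was below 0.05 without any other single library. The partner subunit *Kif3a* did not follow. It had 508, 749, 668 and 690 normalized counts in WT and 537, 538, 507 and 516 in L2-cKO spleens, a log2 fold change of -0.33 (SE 0.13, edgeR adjusted p = 0.126). The groups overlapped through WT spleen 1. *Kif3c*, another subunit that can join *Kif3a*, was at 0.21 (SE 0.19, edgeR adjusted p = 0.512).

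*Kif26a* encodes an atypical kinesin without ATPase activity that is known to restrain growth factor signalling in enteric neurons. In WT spleens its normalized counts were 315, 386, 416 and 348, and in L2-cKO spleens 543, 634, 542 and 828. All L2-cKO libraries were higher, with spleen 4 the highest. The log2 fold change was 0.78 (SE 0.18, edgeR adjusted p = 0.0191). The adjusted p was 0.0519 without WT spleen 2, 0.0657 without WT spleen 4 and 0.0503 without L2-cKO spleen 2. The related *Kif26b* had low normalized counts of 13.9, 7.17, 23.2 and 16.3 in WT and 28.6, 39.5, 33.3 and 26.7 in L2-cKO spleens. Its groups did not overlap, but with a log2 fold change of 1.04 (SE 0.34, edgeR adjusted p = 0.0732) it did not pass.

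No other spleen member passed the test. The largest negative value belonged to *Kif27*, a relative of the Hedgehog regulator *Kif7* that is needed for motile cilia, at -1.34 (SE 0.45, edgeR adjusted p = 0.0773) from 9.28 to 31.6 normalized counts in WT and 3.33 to 11.7 in L2-cKO. *Kif7* itself was at 0.52 (SE 0.18, edgeR adjusted p = 0.0871), and *Kif1c* at 0.43 (SE 0.14, edgeR adjusted p = 0.0669). *Kif5b* was at 0.00 (SE 0.10), with 7138 to 8070 normalized counts in WT and 6677 to 8185 in L2-cKO. *Kif6* (0.928 to 11.2 normalized counts) and *Kif28* (at most 3.38) were below the filter on low counts in the spleen.

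Marker genes of some other cell types moved with genotype in the same spleens. Of 15 megakaryocyte and platelet genes 14 fell, and the summed normalized count was 37952 to 71350 in WT and 4401 to 4876 in L2-cKO. All 10 neutrophil genes fell, from 177028 to 280277 in WT to 11991 to 68440 in L2-cKO. The neuron and glia sum was 721 to 866 in WT and 1048 to 1226 in L2-cKO, with 2 of 10 tested genes passing (*Tubb3* and *Syn1*). Other sums overlapped between the groups. The macrophage sum was 43209 to 91727 and 79990 to 127951, with 1 of 10 genes passing. The erythroid sum was 2157495 to 3891596 and 1874656 to 4120533, with 1 of 14 genes lower. B cell sums were 15483 to 82035 and 17248 to 43541, with none of 10 genes above 0 and none passing. T cell sums were 4079 to 11103 and 5396 to 11042, with none of 9 passing. None of the markers in these lists was at 0 in all libraries. The part of these cell types in the values of *Kif17*, *Kif3b* and *Kif26a* was not tested.

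No mitotic member passed the test in the spleen by edgeR or DESeq2. Of the 11 members 7 had a log2 fold change above 0 and 4 below, and 1 (*Kif15*, a spindle motor, -0.48, SE 0.19, edgeR adjusted p = 0.133) had an unadjusted p below 0.05. The median of the class was 0.04, beside -0.02 over all genes tested, and it ranged from -0.48 to 0.36. The 12 transport members without *Kif17* had a median of 0.11 and ranged from -0.33 to 0.52.

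The mitotic members varied together between animals of one genotype. In all 11 of them L2-cKO spleen 4 was the lowest and L2-cKO spleen 3 the highest of the 4 L2-cKO libraries. Among WT spleens, spleen 1 or 2 was the lowest in all 11 and spleen 3 or 4 the highest. Their summed normalized count was 45094, 49880, 64833 and 62440 in WT spleens 1 to 4 and 55179, 57909, 69759 and 36884 in L2-cKO spleens 1 to 4. The lowest and the highest library of the 8 were thus both L2-cKO. For *Kif11* this was a range of 9644 to 15243 normalized counts in WT and 8241 to 15859 in L2-cKO, for *Kif20a* of 3899 to 6205 and 4161 to 7083, and for *Kif22* of 6590 to 10251 and 3953 to 8007. The transport members without *Kif17* had no such order in the spleen. Their sums were 14921 to 16538 in WT and 17087 to 18509 in L2-cKO spleens, and spleen 4 was the highest L2-cKO library for 6 of 12 members and the lowest for 2. These sums were higher in all L2-cKO spleens. *Kif5b*, which has the highest counts, had a mean of 7501 in WT and 7605 in L2-cKO spleens. The means were 2637 and 3601 for *Kif1c* and 1286 and 1833 for *Kif3b*. Of the 12 members 4 had a log2 fold change below 0.

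The sums of a list of 20 proliferation genes that holds no kinesin were 250532, 309172, 348836 and 370159 in WT and 335450, 343923, 445938 and 213280 in L2-cKO spleens. As with the mitotic motors, L2-cKO spleen 4 and WT spleen 1 were the lowest and L2-cKO spleen 3 the highest. No gene of that list passed the test in the spleen by edgeR, and its median was 0.02. Depth did not differ much between these libraries (39138010 to 45167464 reads). The part of cell division in the spread of the mitotic members was not tested.

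**Figure D3:**
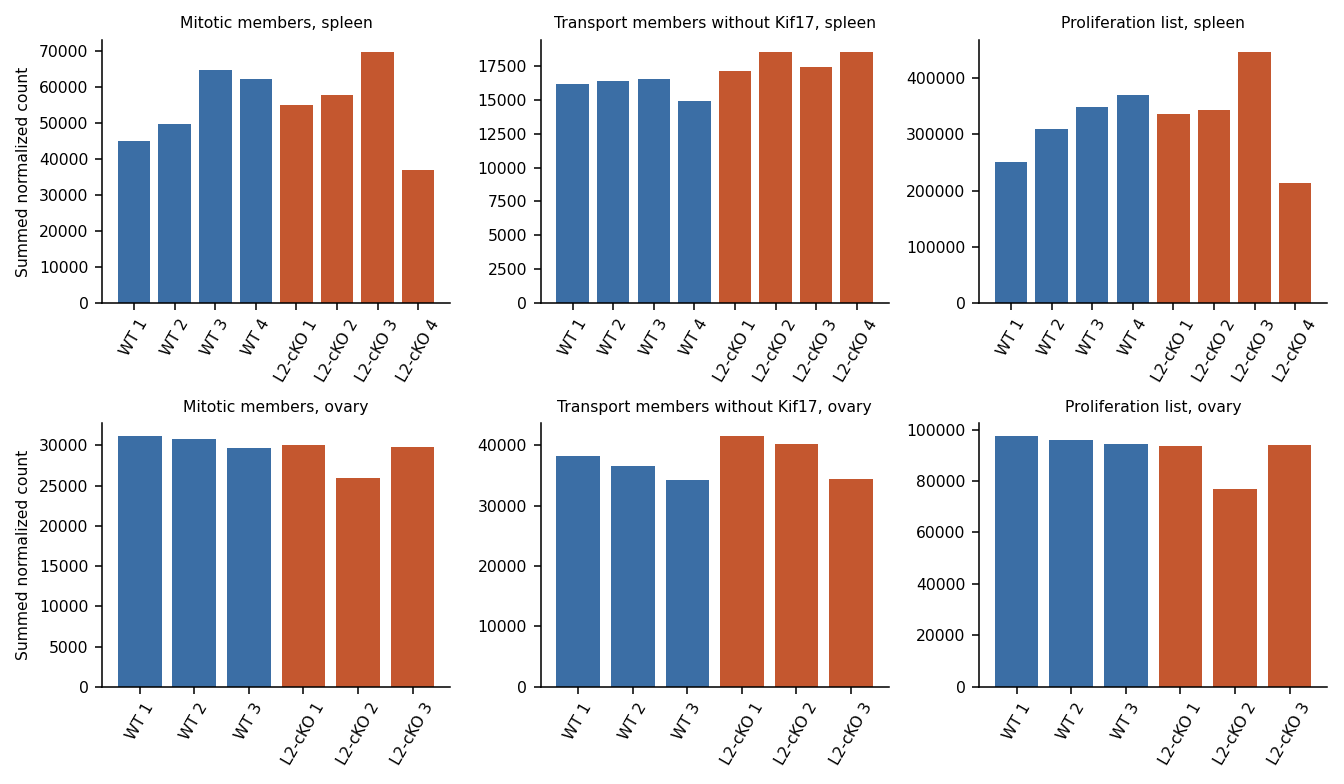
Summed normalized counts (y axes, linear, from 0) of the 11 mitotic members, the 12 transport members without Kif17 and 20 proliferation genes, in each WT (blue) and L2-cKO (orange) library of spleen (top) and ovary (bottom). In the spleen the mitotic and proliferation sums are lowest in L2-cKO 4 and highest in L2-cKO 3, and the transport sums vary less.

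Since the mitotic members moved together from animal to animal, their promoters were searched for TTTGAA on both strands (TTCAAA on the other). This is the cell cycle genes homology region (CHR), known as a site where MuvB complexes hold genes silent in resting cells and activate them before mitosis. RefSeq promoters (GRCm38.p6, from 250 bases before to 50 after the annotated start) were given for 10 of 11 mitotic members, without *Kif20a*, and for 10 of 13 transport members, without *Kif5a*, *Kif5b* and *Kif13b*. The motif was in 9 of 10 mitotic members (all but *Kif18a*), in 1 of 10 transport members (*Kif1a*) and in 20.2% of 27025 genes. Within 50 bases of the annotated start it was in 7 of 10 mitotic members, in 1 of 10 transport members and in 5.72% of all genes. The stretches of these 7 promoters are shown because the motif lay within 50 bases of the start. Each is read along the gene's strand with the motif in capitals, and the number after the name is the position of its first base relative to the start.

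Kif11 (-19), chr19:37376351-37376380 (+): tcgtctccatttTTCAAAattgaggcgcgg

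Kif15 (-19), chr9:122951050-122951079 (+): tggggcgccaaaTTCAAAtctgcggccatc

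Kif22 (-17), chr7:127042420-127042449 (-): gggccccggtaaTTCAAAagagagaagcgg

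Kif23 (2), chr9:61946780-61946809 (-): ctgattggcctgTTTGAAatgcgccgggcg

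Kif18b (3), chr11:102925104-102925133 (-): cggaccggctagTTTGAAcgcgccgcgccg

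Kif20b (7), chr19:34922353-34922382 (+): gagccgccattgTTTGAAtttgaaaaccgg

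Kif4 (19), chrX:100626072-100626101 (+): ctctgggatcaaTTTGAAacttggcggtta

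In *Kif11*, *Kif15* and *Kif22* the motif lay just before the start and on the opposite strand, and in the other 4 it lay just after the start and on the gene's strand. *Kif20b* holds it again directly after the copy in capitals. In *Kif2c* (-103) and *Kif14* (-228) it was farther from the start. The CCAAT box, often found in promoters of mitotic genes, was in 6 of 10 mitotic members, 3 of 10 transport members and 41.1% of all genes, searched on both strands. These letter matches describe the windows searched and do not show binding. The part of these motifs in the spread of the mitotic members was not tested.

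The same comparison in the ovary asks which motors changed in a second organ without ZFP36L2. *Kif9* and *Kif14* rose there and no member fell at an adjusted p below 0.05. They were 2 of 36 members tested, against a background of 1.23% of 18504 genes that rose and 0.351% that fell, by limma on log2(normalized count + 1), a scale that understates the change of low genes. At an unadjusted p below 0.05 there were 6 members (16.7%), beside 16.8% of all genes, and neither edgeR nor DESeq2 on recovered reads found a member that fell. With the fold limit *Kif9* alone remained, against backgrounds of 0.73% higher and 0.227% lower. All L2-cKO ovaries were above all WT ovaries for 5 members (*Kif5c*, *Kif9*, *Kif14*, *Kif19a* and *Kif21b*; background 13.2%) and below them for 4 members (*Kif6*, *Kif18a*, *Kif20a* and *Kif23*; background 12.0%). With 3 ovaries in each group, an exact permutation test of a single gene cannot give a p below 0.1.

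*Kif9* encodes a kinesin of motile cilia and of the sperm flagellum. Its normalized counts were 494, 665 and 611 in WT ovaries 1 to 3 and 1411, 2941 and 1566 in L2-cKO ovaries 1 to 3. All L2-cKO ovaries were more than the highest WT ovary, and L2-cKO ovary 2 stood far above the others. The L2-cKO mean was 334% of the WT mean, and the log2 fold change was 1.67 (SE 0.27, limma adjusted p = 0.0307). The adjusted p was 0.143 without WT ovary 1, 0.115 without WT ovary 2, 0.127 without WT ovary 3 and 0.0605 without L2-cKO ovary 3. Without L2-cKO ovary 2 it stayed below 0.05. In the spleen *Kif9* had 45.5 to 110.4 normalized counts in WT and 45.5 to 85.0 in L2-cKO libraries, with overlapping groups and a log2 fold change of -0.14 (SE 0.31, edgeR adjusted p = 0.808).

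None of 13 listed genes of motile cilia passed beside *Kif9* in the ovary by limma, 4 had a log2 fold change above 0, the median was -0.13, and the summed normalized count was 2669 to 3014 in WT and 2635 to 2802 in L2-cKO. *Kif19a*, which shortens the microtubules of cilia, had 48.7, 35.1 and 39.5 normalized counts in WT and 49.2, 103.8 and 56.9 in L2-cKO ovaries. Here too L2-cKO ovary 2 was the highest, and the log2 fold change of 0.69 (SE 0.32, limma adjusted p = 0.336) did not pass. In the spleen, where *Kif9* did not pass, 4 of 5 tested motile cilium genes fell (*Rsph1*, *Ccdc39*, *Ccdc40* and *Cfap43*) with sums of 1157 to 1544 in WT and 798 to 931 in L2-cKO.

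*Kif14* encodes a mitotic motor that brings citron kinase to the midbody for cytokinesis. Its normalized counts were 2311, 2466 and 2368 in WT ovaries and 3734, 4488 and 3462 in L2-cKO ovaries. The WT values were close together and all L2-cKO values were higher, ovary 2 most of all. The log2 fold change was 0.70 (SE 0.10, limma adjusted p = 0.0234), and the L2-cKO mean was 164% of WT. The adjusted p was 0.120 without WT ovary 1, 0.111 without WT ovary 2, 0.116 without WT ovary 3 and 0.0528 without L2-cKO ovary 1. In the spleen *Kif14* followed the other mitotic members, with 3022 to 4397 normalized counts in WT and 2269 to 5349 in L2-cKO and a log2 fold change of 0.03 (SE 0.23, edgeR adjusted p = 0.949).

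**Figure D4:**
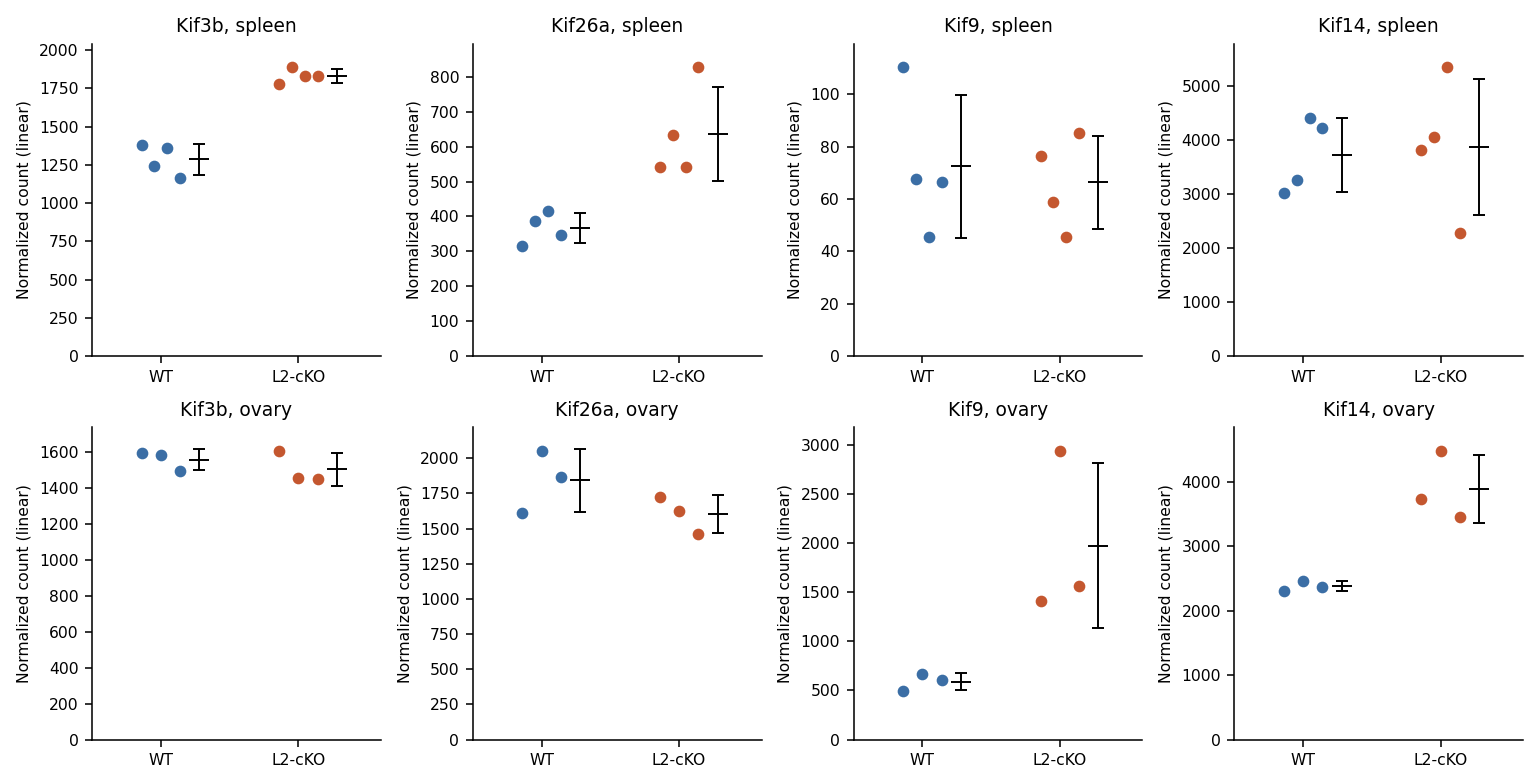
Normalized counts (y axes, linear, from 0) of Kif3b, Kif26a, Kif9 and Kif14 in each WT (blue) and L2-cKO (orange) library of spleen (top) and ovary (bottom), with mean ± SD beside the points. Groups are apart for Kif3b and Kif26a in the spleen and for Kif9 and Kif14 in the ovary, and overlap in the other organ.

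*Kif14* was the exception among the mitotic members of the ovary. The other 10 had a log2 fold change below 0, none of them passing the test, and the median of the 11 was -0.21 beside -0.004 over all genes tested. The lowest was *Kif18a*, which limits chromosome oscillation, with 937, 943 and 851 normalized counts in WT and 697, 585 and 771 in L2-cKO ovaries and a log2 value of -0.42 (SE 0.12, limma adjusted p = 0.147). *Kif22* was at -0.31 (SE 0.13), *Kif11* at -0.14 (SE 0.11) and *Kif4* at -0.08 (SE 0.09). L2-cKO ovary 2 was the lowest of its group in 9 of 11 mitotic members, the exceptions being *Kif4* and *Kif14*. The summed mitotic count was 31199, 30748 and 29716 in WT and 30109, 26011 and 29859 in L2-cKO ovaries. With *Kif14* included, L2-cKO ovaries 1 and 3 lay within the WT range and ovary 2 below it. Without *Kif14* the sums of the other 10 were 28888, 28282 and 27348 in WT and 26376, 21523 and 26397 in L2-cKO ovaries, so that all L2-cKO ovaries were below all WT ovaries. The summed RPKM of all 11 was 137.5, 134.7 and 131.8 in WT and 129.3, 111.0 and 130.9 in L2-cKO ovaries 1 to 3. L2-cKO ovaries 1 and 3 were only just below the lowest WT value. These sums carry no test, and *Kif14* was left out of the sums of 10 after its values were seen. Without L2-cKO ovary 2 the class median was -0.064. The sum of the proliferation list was also lowest in that ovary, with 94275 to 97607 in WT and 93792, 77067 and 93935 in L2-cKO ovaries, 18 of 20 genes at or below 0 and none passing by limma.

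The transport members without *Kif17* were centred on a median of 0.07 (log2 fold change) in the ovary, ranged from -0.17 to 0.44, and none passed by limma. They too varied together between ovaries of the same genotype. WT ovary 3 was the lowest WT library in 9 of 12 members and WT ovary 1 the highest in 8. L2-cKO ovary 3 was the lowest L2-cKO library in 8 of 12 and L2-cKO ovary 1 the highest in 7. *Kif5b* was at 0.06 (SE 0.13), *Kif1c* at -0.03 (SE 0.08) and *Kif3a* at 0.25 (SE 0.12, limma adjusted p = 0.348). *Kif5c*, a heavy chain of conventional kinesin typical of neurons, had 419, 447 and 443 normalized counts in WT and 551, 622 and 502 in L2-cKO ovaries. It was higher in 3 of 3 L2-cKO ovaries, with a log2 fold change of 0.35 (SE 0.11, limma adjusted p = 0.188) that did not pass.

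The ovary libraries also differed in other cell markers. The granulosa and theca sum was 132676 to 151350 in WT and 78781 to 137263 in L2-cKO with none of 15 genes passing, the oocyte sum 260575 to 279800 and 275958 to 310807 with none of 15, and the macrophage sum 4712 to 4982 and 6728 to 7819 with 1 of 10 (*Hmox1*, 0.91). Sums of erythroid, B cell and T cell genes were also higher in all L2-cKO ovaries. They were 9405 to 14521 in WT and 14886 to 24564 in L2-cKO for erythroid genes. Of these, 7 of 12 had a log2 fold change above 0 and none passed. B cell sums were 428 to 503 and 530 to 761 (6 of 8 tested genes above 0, none passing). T cell sums were at most 488 in WT against 556 to 589 (4 of 4 genes above 0, 1 passing, *Cd4*). Neutrophil sums overlapped, at 82 to 363 in WT and 79 to 130 in L2-cKO. Their median log2 fold change was -0.52, and none of 6 genes passed. Megakaryocyte and platelet sums overlapped too, at 3928 to 5106 and 3760 to 5672 (none of 10 passing). The T cell markers *Cd3d*, *Cd3e*, *Cd8a*, *Cd8b1*, *Cd28* and *Bcl11b* are not listed in the ovary table. None of the listed genes was at 0 in all ovaries. The part of these cells in the values of *Kif9*, *Kif14* and *Kif17* was not tested.

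**Figure D5:**
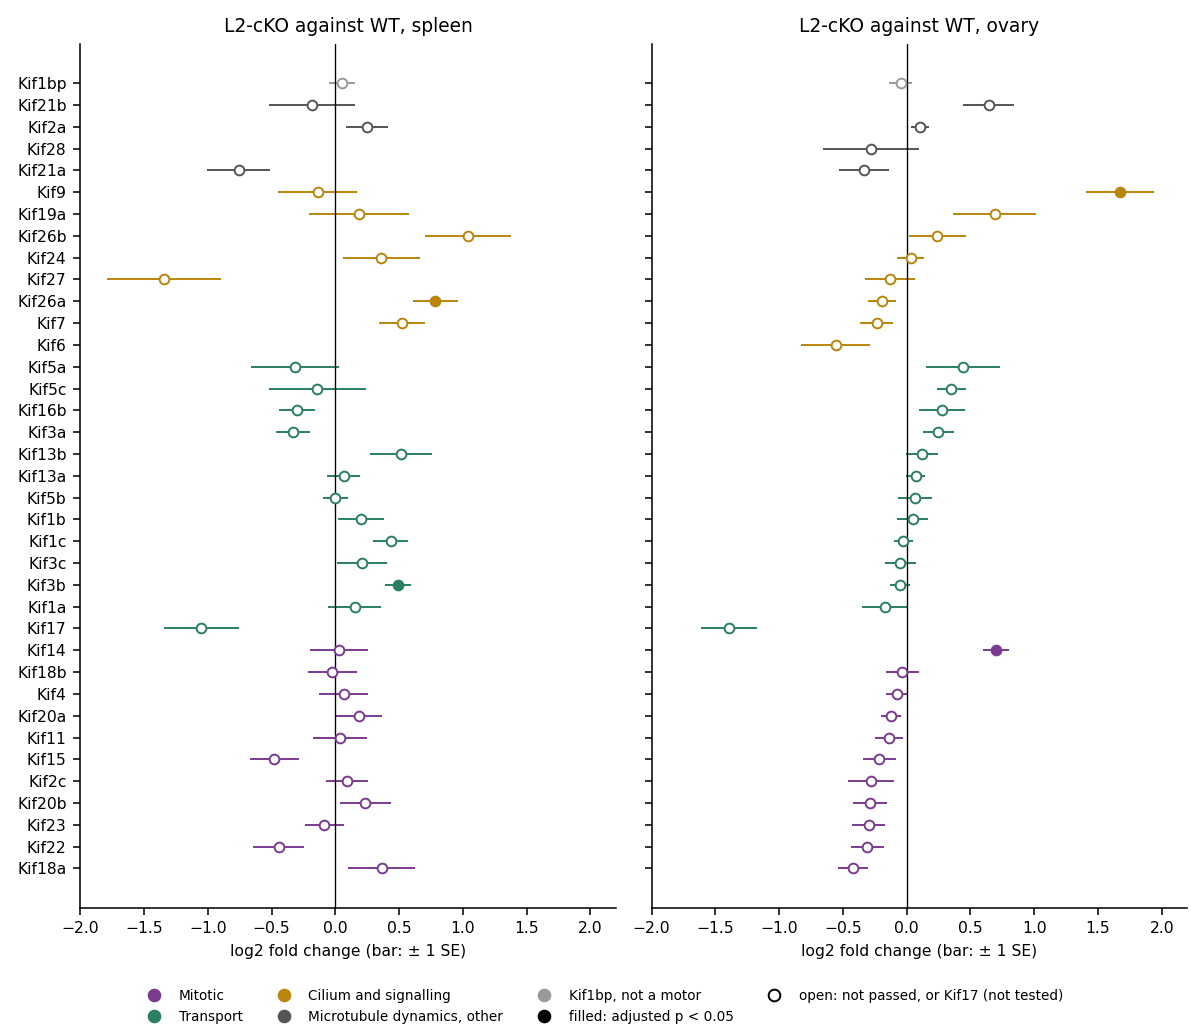
Log2 fold changes of L2-cKO against WT (x axes, bars ± 1 SE) for the members in spleen and ovary, coloured by class. Filled points passed an adjusted p of 0.05 (Kif3b and Kif26a in the spleen, Kif9 and Kif14 in the ovary), open points did not, Kif17 was not tested, and Kif6 and Kif28 have no spleen value.

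Whether genotype effects differed between the organs was tested in 1 model over all 14 libraries, as the effect in the ovary minus that in the spleen. Of the members without *Kif17*, 3 passed an adjusted p of 0.05, 1 higher and 2 lower in the ovary, against a background of 2.65% higher and 2.57% lower of 18580 genes. *Kif26a* had a difference of -1.01 (SE 0.22, edgeR adjusted p = 0.0170), between 0.78 in the spleen and -0.20 in the ovary, where its counts were 1612, 2055 and 1863 in WT and 1726, 1629 and 1459 in L2-cKO. *Kif3b* had a difference of -0.57 (SE 0.13, edgeR adjusted p = 0.0175), with 1595, 1583 and 1490 in WT and 1606, 1453 and 1447 in L2-cKO ovaries. *Kif9* had a difference of 1.85 (SE 0.43, edgeR adjusted p = 0.0222). All ovaries but only some spleens were from females, and with female spleens alone none of the 3 passed, at -0.78 for *Kif26a*, -0.48 for *Kif3b* and 2.52 for *Kif9* (edgeR adjusted p = 0.106, 0.112 and 0.0954). *Kif14* did not pass in the fit of all libraries, with a difference of 0.65 (SE 0.30, edgeR adjusted p = 0.237).

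In the study ZFP36L2 bound RNA probes that held UAUUUAU, so the longest annotated 3′UTR of each member (GENCODE M21, GRCm38) was searched for it. It was present in 12 of 37 members (32.4%), beside 29.5% of the genes tested in the spleen and 29.2% of those tested in the ovary. Transport members held it in 7 of 13 and mitotic members in 4 of 11, and the median 3′UTR was 2993 nt in the former and 671 nt in the latter. Of the members that rose, *Kif14* held 3 and *Kif3b* 1, and *Kif9* and *Kif26a* held none. These 4 stretches are shown since they belong to the members that rose, read along the mRNA with the heptamer in capitals.

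Kif14 first site, chr1:136527953-136527975 (+): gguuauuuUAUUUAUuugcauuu

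Kif14 second site, chr1:136529441-136529463 (+): uguaagcuUAUUUAUauuuaugc

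Kif14 last site, chr1:136529447-136529469 (+): cuuauuuaUAUUUAUgcuaaaua

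Kif3b site, chr2:153333289-153333311 (+): acaauugaUAUUUAUuuguauua

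The last 2 sites of *Kif14* share a base, so they form 1 run of repeated AUUUA. *Kif5b* also held 3 sites and *Kif3c* 2, with log2 fold changes of 0.00 and 0.21 in the spleen and 0.06 and -0.05 in the ovary, none of which passed. The other 8 members with the heptamer held 1 each (*Kif13b*, *Kif18a*, *Kif18b*, *Kif1a*, *Kif1b*, *Kif2c*, *Kif5c* and *Kif6*), and none of them passed in either organ. Of the 37 members 12 held a heptamer, and 2 of these rose in an organ. The members without it were more numerous and also had 2 that rose, so their share was smaller. This difference rests on small counts and was not tested. Binding was not measured.

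Other genes of kinesin transport were taken from lists of partners and of intraflagellar transport. Of 20 tested kinesin partners and other kinesins, 2 rose in the spleen and none fell, a count near the background of 6.89% and 6.51%. *Trak1*, an adaptor that ties mitochondria to kinesin-1, rose by 0.87 on the log2 scale (SE 0.14, edgeR adjusted p = 0.00432), from 1809 to 2527 normalized counts in WT to 3662 to 4740 in L2-cKO. *Kifc3*, a kinesin that moves toward the minus end, rose by 0.64 (SE 0.16, edgeR adjusted p = 0.0318). Of 25 intraflagellar transport genes, the cargo trains of kinesin-2, 1 fell in the spleen (*Cluap1*, -0.50, SE 0.13, edgeR adjusted p = 0.0348) and none rose. In the ovary none of the 21 partners and none of the 25 intraflagellar transport genes passed by limma. Of the latter, 24 had a log2 fold change at or below 0, with a median of -0.12 and sums of 30559 to 31746 in WT and 29083 to 30073 in L2-cKO ovaries.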

How the data were processed

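The authors trimmed reads with Trimmomatic 0.36, aligned them to GRCm38 with STAR 2.5.2b and counted unique, strand-specific exon reads per gene with featureCounts (Subread 1.5.2). The deposited spleen values are these raw counts, and the deposited ovary values are a normalized signal, counts divided by DESeq2 size factors. All ovary values (100.0%) were whole multiples of 1 read within 0.001 read, and the recovered reads were used in count tests, where edgeR called 136 genes higher and 46 lower. Columns of the authors' fold changes and p-values were not used. The members and gene lists were chosen with earlier results of these data known.

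Spleens were tested with edgeR 4.0.16 (quasi-likelihood, TMM, at least 10 counts in at least 4 libraries), ovaries with limma 3.58.1 (trend, log2(value + 1), at least 10 in at least 3), and the difference between organs with edgeR on 4 group means, the shared animal being treated as independent. P-values were Benjamini-Hochberg adjusted over all genes. Calls with a fold limit needed an absolute log2 fold change above 1. DESeq2 1.42.0 was an alternative. The main tests and DESeq2 were tried on simulated data, with changes larger than those of the members that passed. Fits with a replicate block or sex were not simulated. Members were named if an adjusted p was below 0.05 or if among the 3 highest of the mitotic or transport class per length. Others named in the text, such as those whose groups did not overlap, were chosen after their values were seen. Replicate numbers follow the titles, except that 2 WT spleens share number 3 and the male was given number 4. Replicates are animals, as the titles carry an animal number.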

Additional observations from a re-analysis of the deposited data

Results flagged for a closer look

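For 3 members the genotype effect differed between the organs by the edgeR interaction test. The effect in the ovary minus that in the spleen was -1.01 on the log2 scale for *Kif26a* (adjusted p = 0.0170), -0.57 for *Kif3b* (adjusted p = 0.0175) and 1.85 for *Kif9* (adjusted p = 0.0222). *Kif26a* was higher in 4 of 4 and *Kif3b* in 4 of 4 L2-cKO spleens than in any WT spleen, and *Kif9* in 3 of 3 L2-cKO ovaries than in any WT ovary. With female spleens alone, of which 1 is L2-cKO and is assumed to vary like the other groups, the differences were -0.78 for *Kif26a* (adjusted p = 0.106), -0.48 for *Kif3b* (adjusted p = 0.112) and 2.52 for *Kif9* (adjusted p = 0.0954).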

How the results depend on the processing

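In the spleen, DESeq2 gave 5 members higher and 1 lower at an adjusted p below 0.05 and 1 called higher with the fold limit. Sex as a covariate gave 1 lower and 1 called lower (*Kif27*), and male libraries alone gave 4 higher, 1 lower and 1 called lower, with a transport median of 0.26 in place of 0.11. In the difference between organs, female spleens alone gave 0 members higher and 0 lower. Leaving out 1 spleen at a time gave 0 to 4 members higher, 0 to 2 lower, 0 to 1 called higher and 0 to 1 called lower. Leaving out 1 ovary gave 0 to 2 higher, 0 to 1 called higher, a mitotic median of -0.29 to -0.064 and a transport median of -0.014 to 0.16. Leaving out 1 library, *Kif17* ranged from -1.21 to -0.85 in the spleen and from -1.57 to -1.12 in the ovary, and with male spleens alone it was -0.72. The cause of these shifts was not tested.

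The study describes age-matched pairs of spleens, but no source says that the replicate numbers mark them, and same-numbered samples did not deviate together in every pair. Deviations of same-numbered spleens correlated at -0.135, 0.094, 0.178 and -0.293, and those of ovaries at 0.382, 0.211 and 0.072. With a replicate block, 0 members were higher in the spleen (adjusted p = 0.0602 for *Kif3b* and 0.0555 for *Kif26a*), and 1247 genes in place of 2267 had an adjusted p below 0.05. In the ovary the block gave 539 genes in place of 292, with *Kif9*, *Kif14* and *Kif21b* among them.

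Over all genes, ovary calls with the fold limit were 135 higher and 42 lower, 286 and 121 with DESeq2, 187 and 81 with the block, and 28 to 126 and 4 to 72 without 1 ovary. Spleen calls were 490 and 526, and 354 to 612 and 396 to 711 under the leave-one-out fits. At an adjusted p below 0.05 alone, leaving out 1 library gave 1136 to 3112 genes in the spleen (2267 with all) and 34 to 423 in the ovary (292 with all), and DESeq2 gave 1116 in the ovary.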
